A study of Mus musculus with 4 samples.

Results

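Transcripts of 10 transcription factor and coactivator genes of the B lineage were followed in mouse leukaemic cell lines with INK4-insensitive CDK4 and CDK6. The genes were Pax5, Ebf1, Tcf3, Ikzf1, Ikzf3, Irf4, Irf8, Spib, Pou2af1 and Bach2, taken by name as a family of known regulators and not for their values. They were found through the RefSeq accession of each probe, and every probe so matched was kept. Of the probes, 28025 matched no gene name in this way, so further probes of the 10 genes may have been missed. All 10 genes were on the array, with 14 matched probes among 55681, and all 10 passed the filter on dim probes that left 20045 genes to test. The lines grew out of fetal liver cells transduced with p185 BCR-ABL1, the fusion tyrosine kinase of acute lymphoblastic leukaemia, and were kept as spontaneously immortal clones. The R/R lines were homozygous for 2 knock-in substitutions, R24C in Cdk4 and R31C in Cdk6, which the wild-type (WT) lines lacked. All lines shared the p185 BCR-ABL1 oncogene and a strain background of C57BL/6J mixed with CD-1, and RNA was taken from asynchronous cultures. The R24C and R31C substitutions are known to keep INK4 inhibitors from binding the kinases. Each of 4 two-colour arrays carried R/R RNA beside a WT pool: R/R clones 1, 2 and 3 in Cy5, and an R/R pool in Cy3. Every R/R line measured singly was 1 clone, and the labels do not say what either pool held. The identifiers of clones 1 and 2 share their first number. The labels do not say whether the clones came from separate fetuses, so p-values measure only the spread between these clones.

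B-cell identity is built by a cascade of DNA-binding proteins. E2A, the product of Tcf3, is a helix-loop-helix protein that acts with EBF1 to open B-lineage genes, and together they turn on PAX5, which holds the cell in the lineage and shuts off genes of other fates. Ikaros and Aiolos, encoded by Ikzf1 and Ikzf3, are zinc-finger proteins that limit the growth of pre-B cells. IRF4 and IRF8 bind DNA poorly alone and pair with the ETS proteins PU.1 and SPIB, and in pre-B cells they are known to dampen pre-B receptor genes and to start light chain rearrangement. OBF1, encoded by Pou2af1, is a coactivator of the octamer-binding OCT proteins. BACH2 is a repressor that pairs with small MAF proteins and is known to hold B cells short of the plasma cell stage. In BCR-ABL1 leukaemia PAX5 and Ikaros are known targets of inactivating lesions.

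The results turn on 4 of the genes. Spib and Pou2af1 had the lowest and the highest fitted value, and Irf8 and Bach2 differed most between the clones, so the stretch of 250 bases upstream of an annotated start of each is shown (RefSeq, GRCm38.p6, read 5′ to 3′ on the strand of the gene). The windows are chr7:44532072-44532321 (minus strand) for Spib, chr9:51213440-51213689 (plus strand) for Pou2af1, chr8:120736108-120736357 (plus strand) for Irf8 and chr4:32417185-32417434 (plus strand) for Bach2. Capitals mark matches to the motifs described after the sequences.
Spib: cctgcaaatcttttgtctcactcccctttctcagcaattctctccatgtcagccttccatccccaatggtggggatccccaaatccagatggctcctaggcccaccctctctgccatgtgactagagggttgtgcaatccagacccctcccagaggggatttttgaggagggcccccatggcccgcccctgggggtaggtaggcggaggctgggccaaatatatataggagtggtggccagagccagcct
Pou2af1: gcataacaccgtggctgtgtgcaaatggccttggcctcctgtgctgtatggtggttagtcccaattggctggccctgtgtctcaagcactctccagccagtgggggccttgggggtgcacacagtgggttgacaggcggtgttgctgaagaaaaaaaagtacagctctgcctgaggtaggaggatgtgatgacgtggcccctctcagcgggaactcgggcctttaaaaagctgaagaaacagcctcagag
Irf8: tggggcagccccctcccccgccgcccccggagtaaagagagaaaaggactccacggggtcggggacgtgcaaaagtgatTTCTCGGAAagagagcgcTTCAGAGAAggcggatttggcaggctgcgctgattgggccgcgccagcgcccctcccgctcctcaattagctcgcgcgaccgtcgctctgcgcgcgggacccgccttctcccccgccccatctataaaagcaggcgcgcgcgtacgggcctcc
Bach2: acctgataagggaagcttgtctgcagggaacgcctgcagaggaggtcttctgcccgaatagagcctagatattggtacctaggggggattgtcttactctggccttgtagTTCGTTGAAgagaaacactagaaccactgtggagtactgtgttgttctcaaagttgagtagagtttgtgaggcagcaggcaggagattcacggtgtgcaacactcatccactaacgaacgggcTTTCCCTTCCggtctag
Both strands were searched for the E-boxes CAGCTG and CAGGTG, the EBF motif TCCC followed after 2 bases by GGGA, the ETS-IRF composite GGAA followed after 2 bases by GAAA, the interferon-stimulated response element GAAA followed after 2 bases by GAAA, the octamer core ATGCAAA, the STAT motif TTCNNNGAA and the AP-1-like motif TGAGTCA. The Irf8 window held 2 STAT matches, at -171 to -163 and -153 to -145 from the start. The Bach2 window held 1 STAT match at -140 to -132 and 1 ETS-IRF composite at -17 to -8. No matches overlapped. A second Irf8 window, not shown, held 1 E-box CAGGTG at -205 to -200. The Bach2 window belongs to a start inside the annotated locus, which begins at position 32238413 of chromosome 4. Of 32851 such windows over all genes, 7.02% held the STAT motif and 2.3% the composite. These letters were not found in the Spib and Pou2af1 windows. RefSeq listed 12 windows for 9 of the 10 genes, and Ikzf3 had none in the table used.

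Between 42.1% and 53% of probes lay well above background per channel, and for probes spotted repeatedly, the typical SD between spots was 0.09 to 0.099 in log2 units, depending on the array. Each probe of the 10 genes was spotted once, so none of them has a spot replicate of its own. The number of arrays limits the precision. All arrays lay on 1 slide. The labels name no cell type. All 10 listed markers of pro-B and pre-B cells, among them Cd79a, Vpreb1 and Igll1, were well above background in both channels of all 4 arrays. Of 7 myeloid markers, 5 were well above background in every R/R channel and 6 in every WT channel, and Mpo in none. The erythroid markers Klf1, Alas2, Epor and Hba-a1, the T and NK cell markers Cd3d, Cd8a and Ncr1, and the mast cell and megakaryocyte markers Cpa3, Fcer1a, Itga2b, Mcpt8 and Pf4 were not well above background in any channel. Of the 8 T and NK cell markers, 3 (Cd3e, Cd4 and Nkg7) were well above background in every R/R and every WT channel, and the megakaryocyte marker Gp9 in 1 R/R and 3 WT channels. The erythroid marker Hbb-bt was also well above background in every R/R and every WT channel. In what follows, a ratio is log2 of R/R over WT on 1 array, with the sign of the dye-swapped pool array turned, and a level is the normalised log2 intensity of 1 channel.

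None of the 10 genes was called higher or lower in R/R cells than in the WT pool (limma, Benjamini-Hochberg adjusted p under 0.05), against 0.524% of all genes tested. At an unadjusted p under 0.05, 1 was higher (Pou2af1, against 7.27% of all genes) and 1 lower (Spib, against 8.1%), together 2 of 10 against 15.4%. A fitted ratio of 0.5 or more in size was found for Spib alone, against 4.96% of all genes. The fitted ratio was below 0 for 8 genes and above 0 for 2, with a median of -0.11 against -0.02 over all genes. Levels of the R/R and WT channels did not overlap over the 4 arrays for 3 of the 10 (Pax5, Spib and Pou2af1), against 18.7% of all genes. A gene kept 1 sign on all 4 arrays in 4 cases (Pax5, Ikzf3, Spib and Pou2af1), against 30.8% of all genes. Ikzf3, counted here and among the 8 below 0, passed the filter through its WT channel alone, which favours a ratio below 0. With genotype and dye as its 2 terms, the fit rests on 2 residual degrees of freedom. Only the pool array has swapped dyes, so in this fit it weighs as much as all 3 clone arrays together. The fitted values are therefore not plain averages over the 4 arrays. Every array carried RNA labelled as the WT pool, so variation between WT lines is not in any error given here, although the study's design text names 3 control replicates. In bulk RNA, fewer cells that express a gene and less of its RNA per cell cannot be told apart.

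**Figure D1:**
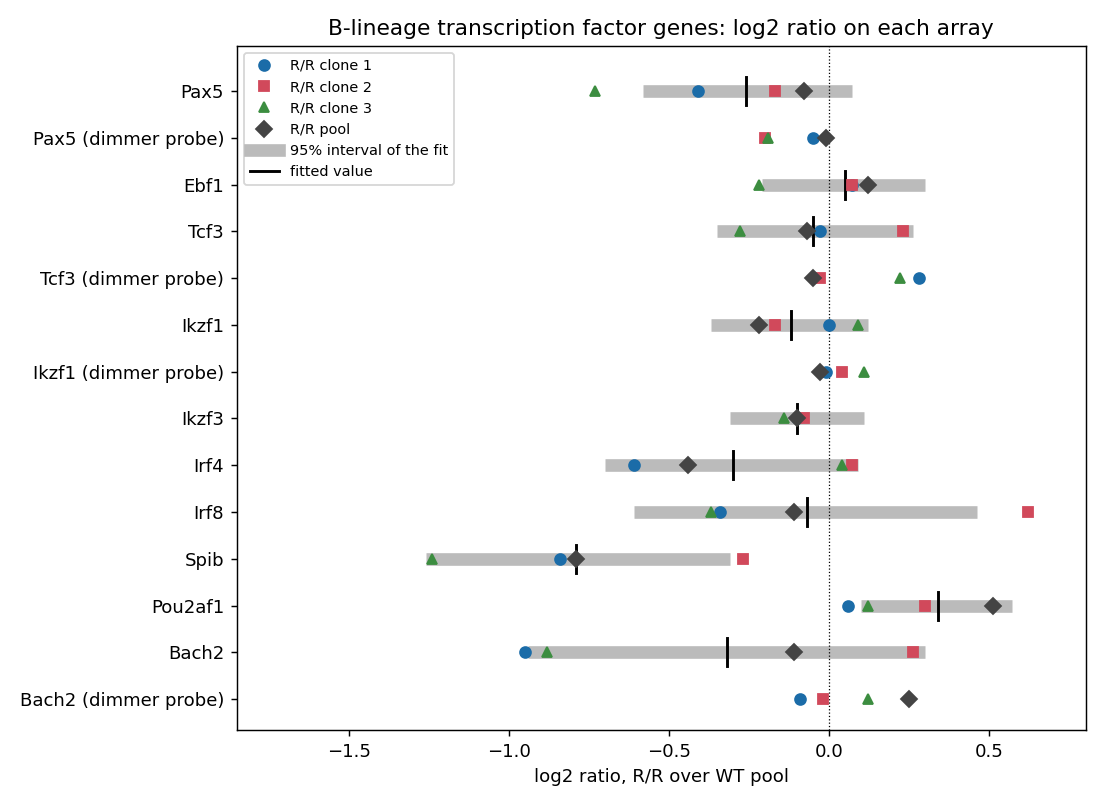
Log2 ratio of R/R over the WT pool (horizontal axis) for the 14 probes of the 10 genes. Points are the 3 clone arrays and the pool array, black ticks the fitted values and grey bars their 95% intervals, drawn for the probe used in the fit. Spib lies below 0 on all 4 arrays, and clone 2 stands apart from clones 1 and 3 for Irf8 and for the brighter Bach2 probe.

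The genes at the head of the cascade, Tcf3, Ebf1 and Pax5, did not pass the test. For Tcf3, the R/R level was 11.50 in clone 1, 11.70 in clone 2, 11.21 in clone 3 and 11.56 in the pool, against 11.53, 11.46, 11.49 and 11.63 in the WT channel of the same arrays. The R/R levels spread around those of WT, and a ratio of -0.05 ± 0.12 was fitted (SE, 3 clones and 1 pool), with a 95% interval of -0.35 to 0.26 (limma adjusted p = 0.88). A dimmer Tcf3 probe, on another RefSeq transcript of the gene, gave 0.05 ± 0.10, with clones 1 and 3 at 0.28 and 0.22. On the first probe those clones were at -0.03 and -0.28, so the 2 probes do not give the same order of clones.

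Ebf1 had R/R levels of 11.46, 11.36 and 11.09 in clones 1 to 3 and 11.49 in the pool, against WT levels of 11.39, 11.30, 11.32 and 11.37. Clone 3 was the 1 sample below its WT channel, at a ratio of -0.22. The fitted ratio was 0.05 ± 0.10, and its 95% interval of -0.21 to 0.30 takes in differences of either sign (adjusted p = 0.855).

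Pax5, the gene of the commitment factor, had R/R levels of 7.49, 7.62 and 7.25 in clones 1 to 3 and 7.73 in the pool, against WT levels of 7.90, 7.79, 7.98 and 7.80. Every R/R level lay below every WT level, by little on the pool array (ratio -0.08) and by most in clone 3 (-0.73). The fitted ratio of -0.26 ± 0.13 was 1.19-fold higher in WT and did not pass the threshold (95% interval -0.58 to 0.07, adjusted p = 0.413). On the clones alone it was -0.43 (adjusted p = 0.178). The dimmer Pax5 probe gave ratios of -0.05, -0.20 and -0.19 in the clones and -0.01 in the pool, and its R/R and WT levels overlapped. By the log ratios of the scanner software, the brighter probe gave -0.57, -0.24 and -1.14 in the clones and -0.04 in the pool.

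Both Ikaros family genes differed little between the clones. For Ikzf1, R/R levels were 8.81, 8.77, 8.92 and 8.76 in clones 1 to 3 and the pool, against 8.81, 8.94, 8.82 and 8.98 in WT. Its fitted ratio was -0.12 ± 0.10 (95% interval -0.37 to 0.12, adjusted p = 0.571), and a dimmer probe gave 0.01 ± 0.09. Ikzf3 was the dimmest of the genes: its R/R channel was well above background on 2 of 4 arrays and its WT channel on all 4. Its ratios were -0.10, -0.08 and -0.14 in the clones and -0.10 in the pool, with a fitted value of -0.10 ± 0.09 (adjusted p = 0.601). The scanner software gave 0.02, 0.00, -0.41 and -0.29 for the same spots, so the even ratios were not seen on that scale.

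Spib, which encodes an ETS factor close to PU.1, had the lowest fitted value. Its R/R level was 8.46 in clone 1, 9.07 in clone 2, 8.15 in clone 3 and 8.69 in the pool, against 9.30, 9.34, 9.39 and 9.48 in WT. All R/R levels lay below all WT levels. The R/R levels themselves spread over 0.92 between the clones, and the levels of the WT pool over 0.09 on the same 3 arrays. The fitted ratio was -0.79 ± 0.19, or 1.72-fold higher in WT, with a 95% interval of -1.26 to -0.31. The unadjusted p was 0.00712, which ranked 864 among the 20045 genes, and the adjusted p was 0.165. Taking the pool array as a further replicate, with no dye term, Spib passed at -0.78 (adjusted p = 0.0285). In the other 14 alternatives the adjusted p lay between 0.0815 and 0.557, with ratios of -0.93 to -0.67.

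Irf8 was a gene of opposed clones. Its R/R level was 12.45 in clone 1, 13.51 in clone 2, 12.55 in clone 3 and 12.91 in the pool, against 12.79, 12.89, 12.92 and 13.03 in WT. Clone 2 was above every WT level and clones 1 and 3 below every one. The ratios were -0.34, 0.62 and -0.37 in the clones, and the pool, at -0.11, lay between them. The fit gave -0.07 ± 0.21 (95% interval -0.61 to 0.46, adjusted p = 0.894), and -0.23 without clone 2.

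Its relative Irf4, known for its part in light chain rearrangement and in the plasma cell stage, showed another order. R/R levels were 8.93, 9.67 and 9.57 in clones 1 to 3 and 9.36 in the pool, against 9.54, 9.60, 9.53 and 9.80 in WT. Clone 1 (ratio -0.61) and the pool (-0.44) were low, and clones 2 and 3 (0.07 and 0.04) stood at the WT level. The fit gave -0.30 ± 0.16 (95% interval -0.70 to 0.09, adjusted p = 0.423). It was -0.19 without clone 1 and -0.17 on the clones alone.

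Pou2af1 had the highest fitted value of the 10. R/R levels were 13.38, 13.62, 13.39 and 13.68 in clones 1 to 3 and the pool, against 13.32, 13.32, 13.27 and 13.16 in WT. All R/R levels lay above all WT levels, by a margin that was small in clones 1 and 3 (ratios 0.06 and 0.12) and largest in the pool (0.51). The fitted ratio of 0.34 ± 0.10 was 1.26-fold higher in R/R and did not pass (95% interval 0.10 to 0.57, adjusted p = 0.204). On the clones alone it was 0.16 (adjusted p = 0.412). With no dye term, where all 4 arrays count equally, the ratio was 0.25 (adjusted p = 0.177). The size of the fitted ratio thus leans on the pool array. The pool array also carries the swapped dyes, so pool and dye cannot be told apart. It lay outside the range of the clones for 4 of the 10 genes, against 45.1% of all genes.

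Bach2 had the widest spread between clones. R/R levels were 8.99 in clone 1, 10.37 in clone 2, 9.23 in clone 3 and 9.84 in the pool, against 9.94, 10.12, 10.11 and 9.96 in WT. As with Irf8, clone 2 was above every WT level and clones 1 and 3 below every one. The ratios were -0.95, 0.26 and -0.88 in the clones and -0.11 in the pool, and the fitted ratio was -0.32 ± 0.25 (95% interval -0.94 to 0.30, adjusted p = 0.572). It was -0.51 without clone 2 and -0.21 without clone 1, and -0.52 on the clones alone. The dimmer Bach2 probe, with the same RefSeq accession, did not show this: its ratios were -0.09, -0.02 and 0.12 in the clones and 0.25 in the pool, with a fitted value of 0.13 ± 0.09. By the scanner software, the dimmer probe gave -0.20, -0.11, 0.24 and 0.60 and the brighter one -1.09, 0.25, -0.85 and -0.04, so the probes also disagree on that scale. The files hold no probe sequences, and which transcripts each probe reads is not known here.

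**Figure D2:**
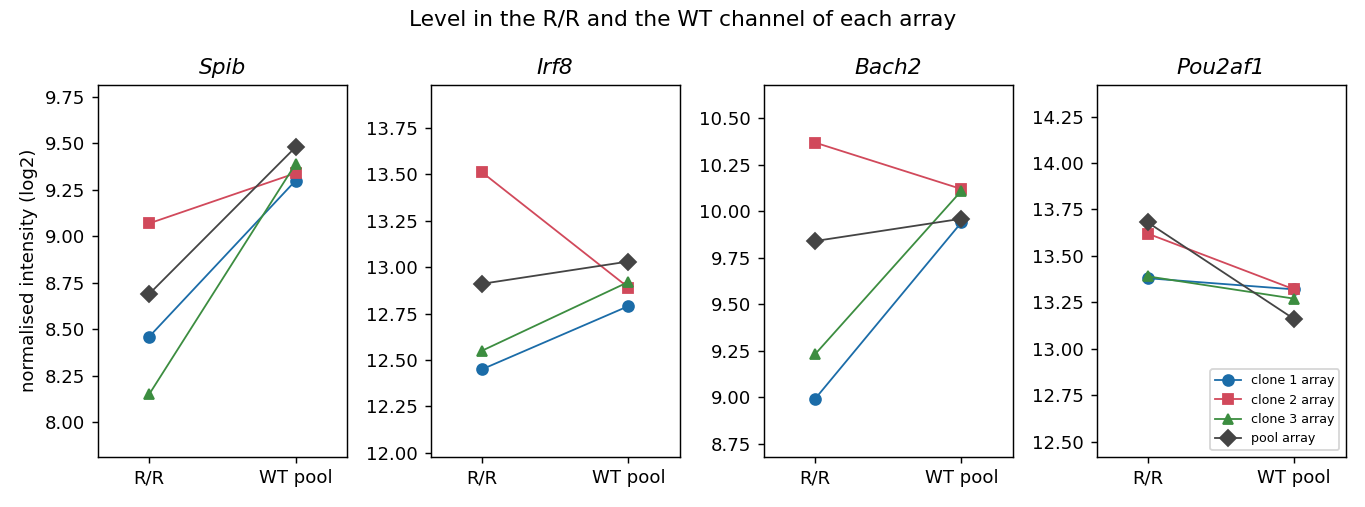
Normalised log2 intensity (vertical axis, 2 log2 units in each panel) of Spib, Irf8, Bach2 and Pou2af1 in the R/R channel (left) and the WT pool channel (right) of each array, joined by array. The WT channels, all labelled as the WT pool, lie close together and show no difference between WT lines. The R/R levels of Spib, Irf8 and Bach2 spread by 0.92 to 1.38 between the 3 clones.

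Several of the 10 genes differed widely between the R/R clones. The SD over the 3 clones was above 0.5 on the log2 scale for Irf8 (0.57) and Bach2 (0.68), 2 of 10 genes against 5.6% of all genes, and was 0.49 for Spib. The median SD of the 10 was 0.27, against 0.17 over all genes. Between clones 1, 2 and 3 the R/R level ranged over 1.38 for Bach2, 1.06 for Irf8, 0.92 for Spib and 0.74 for Irf4. The WT level on the same arrays ranged over 0.18, 0.13, 0.09 and 0.06 for these 4 genes. These WT channels all carried RNA labelled as the WT pool, so their range holds no difference between WT lines. Each clone was measured on 1 array, so differences between clones have no test.

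By the probe used in the fit, clone 2 was the highest of the 3 clones for 8 of the 10 genes, against 38.4% of all genes. The exceptions were Ikzf1, lowest in clone 2, and Ebf1, at 0.07 in both clones 1 and 2. The dimmer probes of Pax5, Tcf3, Ikzf1 and Bach2 did not place clone 2 highest. Its ratios on them were -0.20, -0.03, 0.04 and -0.02. The lead of clone 2 was 1.13 for Bach2, 0.96 for Irf8 and 0.57 for Spib, and between 0.02 and 0.27 for Tcf3, Pax5, Pou2af1, Irf4 and Ikzf3. A lead over both other clones of 0.5 or more, a line chosen after the values were seen, was found for 3 of the 10 genes and 3.75% of all genes. Clone 1 was below both others by that much for Irf4 alone, and clone 3 passed that line for none of the 10.

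Among the listed targets of E2A, EBF1 and PAX5, clone 2 was the lowest clone for 12 of the 18, against 33.4% of all genes. It was the highest for 3 (Cd22, Cd24a and Cr2), against 38.4%. It was lower than both others by 0.5 or more for 7 of the 18, against 2.32% of all genes. Dntt, which encodes the terminal transferase that adds bases at V(D)J joints, had ratios of 1.31, -1.67 and 1.92 in clones 1 to 3 and 0.71 in the pool. For Rag1 and Rag2, the recombinase genes, the ratios were -1.35 and -1.36 in clone 2, while Rag1 stood at 0.05 and 0.62 and Rag2 at 0.84 and 0.33 in clones 1 and 3. The surrogate light chain genes Vpreb1 (0.62, -0.23 and 0.76 in clones 1 to 3), Igll1 (0.50, -0.27 and 0.41) and Vpreb2 (0.42, -0.12 and 0.52) were also lowest in clone 2, by less. The same held for Cd79a, which encodes a signalling chain of the B-cell receptor, at 0.34, -0.36 and 0.24. These 7 genes were chosen by that line, after their values were seen. Among the upstream regulators, the zinc-finger repressor gene Gfi1 was also lowest in clone 2, at -0.86, -2.28 and 0.99 in clones 1 to 3. Among the paralogs, Irf2 was highest in clone 2, at -0.53, 0.35 and -0.53. Gfi1 and Irf2 were likewise singled out with their values known.

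Clone 2 was the highest clone for 3 of the 6 tested myeloid markers, against 38.4% of all genes, and the lowest for 2, against 33.4%. Csf3r, the receptor of granulocyte colony-stimulating factor, had ratios of -0.46, 0.42 and -0.90 in clones 1 to 3 and -0.58 in the pool, and the integrin gene Itgam had -0.42, 0.26, -0.98 and -0.39. That Itgam probe had a mean R/R level of 14.53, against 6.50 and 6.35 for its dimmer probes. The dimmer probes gave 0.33, 0.27 and 0.16, and -0.03, 0.11 and 0.03, in clones 1 to 3. The remaining marker highest in clone 2 stood at -0.18, 0.11 and -0.26 by the probe used in the fit. Another of its probes, at a mean R/R level of 7.52 against 7.71, gave 0.22, -0.31 and 0.31, with clone 2 lowest. Lyz2 ran the other way from Csf3r and Itgam, at 0.42, -0.24, 0.30 and 0.06, and Fcgr3 stood at 0.42 to 0.48 on all 4 arrays. Lyz2 was dim, with R/R levels of 6.96, 6.14, 6.90 and 6.43 and 3 of 4 R/R channels well above background. Summed over the 7 myeloid markers on the array, the linear R/R intensity was 68898, 109063 and 51508 in clones 1 to 3 and 66216 in the pool, against 84716 to 97339 in the WT channels. Over the 10 pro-B and pre-B markers it was 148850, 109646 and 159606 in clones 1 to 3 and 129605 in the pool, against 107575 to 123576 in the WT channels. Of the 3 clones, clone 2 had the highest myeloid and the lowest pro-B and pre-B sum. Csf3r and Itgam made up 98.5% to 99.3% of the myeloid sum in the R/R channels, and the other 5 markers summed to 825, 808 and 764 in clones 1 to 3. Vpreb1 made up 50.7% to 59.3% of the pro-B and pre-B sum there, and the other 9 summed to 67768, 52351 and 65036. Mpo was not well above background in any channel. The part of these markers in the clone pattern of Irf8, Spib and Bach2 was not tested. Of the 6 erythroid markers only Hbb-bt, a beta-globin gene, passed the filter on dim probes. It was called lower in R/R cells, at -1.84 ± 0.20 (limma adjusted p = 0.0417). The summed erythroid intensity was 2097 to 3577 in the R/R channels, against 8471 to 9555 in the WT channels. The other erythroid markers were not well above background in any channel, so the contrast in this sum is that of Hbb-bt. The part of Hbb-bt in the values of Spib and Cr2 was not tested.

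**Figure D3:**
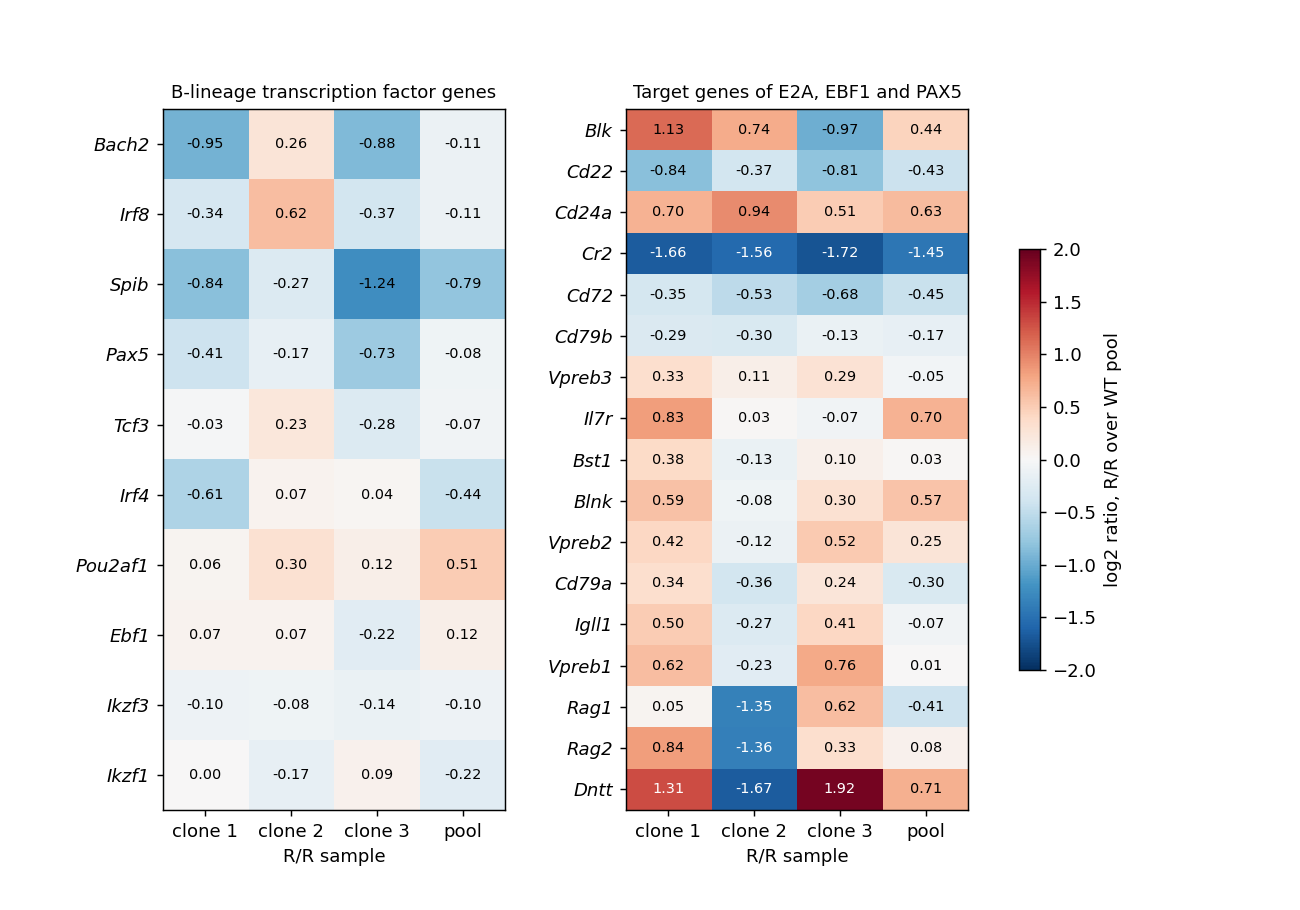
Log2 ratio of R/R over the WT pool (colour and number) for the 10 transcription factor genes (left) and 17 of the 18 listed target genes (right) in R/R clones 1, 2 and 3 and the R/R pool. Genes are sorted by clone 2 minus the mean of clones 1 and 3, largest at the top. Bach2, Irf8 and Spib head the left panel, and Dntt, Rag2 and Rag1 close the right one, with clone 2 at -1.67, -1.36 and -1.35.

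As a comparison between R/R and WT, 1 of the 18 target genes was lower (against 0.374% of all genes) and none higher (against 0.15% of all genes). At an unadjusted p under 0.05, 3 were lower (against 8.1% of all genes) and 3 higher (against 7.27%). The gene that fell was Cr2, which encodes the complement receptor CD21 of mature B cells. Its R/R levels were 7.51, 7.85, 7.62 and 7.71 in clones 1 to 3 and the pool, against 9.17, 9.41, 9.33 and 9.16 in WT. All R/R levels lay well below all WT levels, and the 3 clones lay close together. The fitted ratio was -1.55 ± 0.09, or 2.92-fold higher in WT (limma adjusted p = 0.0105). It passed in 14 of 15 alternatives, and the dimmer Cr2 probe gave -0.72 and narrowly missed the threshold (limma adjusted p = 0.0522). That probe was dim in R/R, at levels of 6.28, 6.49, 6.54 and 6.59 in clones 1 to 3 and the pool. By the scanner software it gave -2.18, -1.42, -1.96 and -1.60, and the brighter probe -2.10, -1.84, -2.15 and -1.95. Cd24a, a surface glycoprotein gene of early B cells, stood at 0.67 ± 0.11 (adjusted p = 0.0943) and Cd72, which encodes an inhibitory B-cell coreceptor, at -0.49 ± 0.10 (adjusted p = 0.141), each with 1 sign on all arrays. The median of the 18 genes was 0.07, against -0.02 over all genes.

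None of the 13 tested partners and antagonists of the 10 factors was called (limma), and 2 were higher and 1 lower at an unadjusted p under 0.05. Over all genes, 0.524% were called, and 7.27% were higher and 8.1% lower at that p. These are the shares to set beside the counts of this list and of every list after it. Tcf4, which encodes the E protein E2-2, a relative of E2A, had ratios of -0.31, -0.65, -0.80 and -0.38 in clones 1 to 3 and the pool. Its fitted value was -0.48 ± 0.12 (adjusted p = 0.174), and a dimmer probe gave -0.21 to 0.09. Id3, whose product binds E proteins and keeps them off DNA, was at 0.52, 0.23, 0.30 and 0.32, with a fitted value of 0.34 ± 0.10 (adjusted p = 0.219). Batf3, whose product pairs with IRF4 and IRF8 on composite sites, had ratios of 1.93 and 1.53 in clones 1 and 2 and 1.47 in the pool, but -0.12 in clone 3. Its fitted value was 1.29 ± 0.39 (adjusted p = 0.221). Spi1, the gene of PU.1, stood at 0.19 ± 0.12 (adjusted p = 0.492); it is named as the partner of IRF4 and IRF8, outside the naming rule. Id4 and Zfp423 did not pass the filter.

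None of 9 tested paralogs of the factors was called, none had an unadjusted p under 0.05, and their fitted ratios ran from -0.15 to 0.21. The interferon-responsive Irf1 stood at 0.21 ± 0.09 (adjusted p = 0.339) and Irf5 at -0.15 ± 0.10 (adjusted p = 0.501). Ebf2, Ebf3, Ebf4, Ikzf2, Irf7 and Spic did not pass the filter.

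Of 13 upstream and cooperating regulators none was called, and 1 was higher at an unadjusted p under 0.05. This was Cbfb, the partner subunit of RUNX proteins, at 0.30 ± 0.09 (adjusted p = 0.219). Runx1 stood at -0.33 ± 0.13 (limma adjusted p = 0.331) and Stat5b, which encodes a transcription factor activated by BCR-ABL1, at 0.29 ± 0.12 (limma adjusted p = 0.35). Their dimmer probes did not keep 1 sign. In clones 1 to 3 and the pool, that of Runx1 gave 0.24, -0.13, 0.17 and -0.19. That of Stat5b gave 0.34, 0.25, -0.17 and 0.03. Of the 4 tested genes of plasma and germinal centre stages none was called and 1 was higher at an unadjusted p under 0.05. Xbp1, a regulator of secretion in plasma cells, stood at 0.43 ± 0.23 (adjusted p = 0.441) and the germinal centre repressor gene Bcl6 at -0.05 ± 0.09 (adjusted p = 0.827).

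Transcription factors of other lineages gave no call among 10 tested, with 1 higher and 1 lower at an unadjusted p under 0.05. Cebpb, a myeloid and stress-responsive factor, had the lowest value at -0.92 ± 0.13 (adjusted p = 0.0715), with ratios of -0.49, -1.08, -0.76 and -1.06 in clones 1 to 3 and the pool. Tcf7, the gene of the T-lineage factor TCF-1, stood at 0.65 ± 0.10 (limma adjusted p = 0.0853). It was dim in WT, at levels of 6.66, 6.61, 6.68 and 6.56, and the scanner software gave 1.81, 1.16, 0.72 and 1.54. Gata1 stood at -0.21 ± 0.09 (limma adjusted p = 0.333), with no R/R channel well above background. The myeloid factor genes Cebpa and Cebpe, the T and NK factor genes Bcl11b, Tbx21 and Eomes, and Gata2 and Klf1 did not pass the filter.

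**Figure D4:**
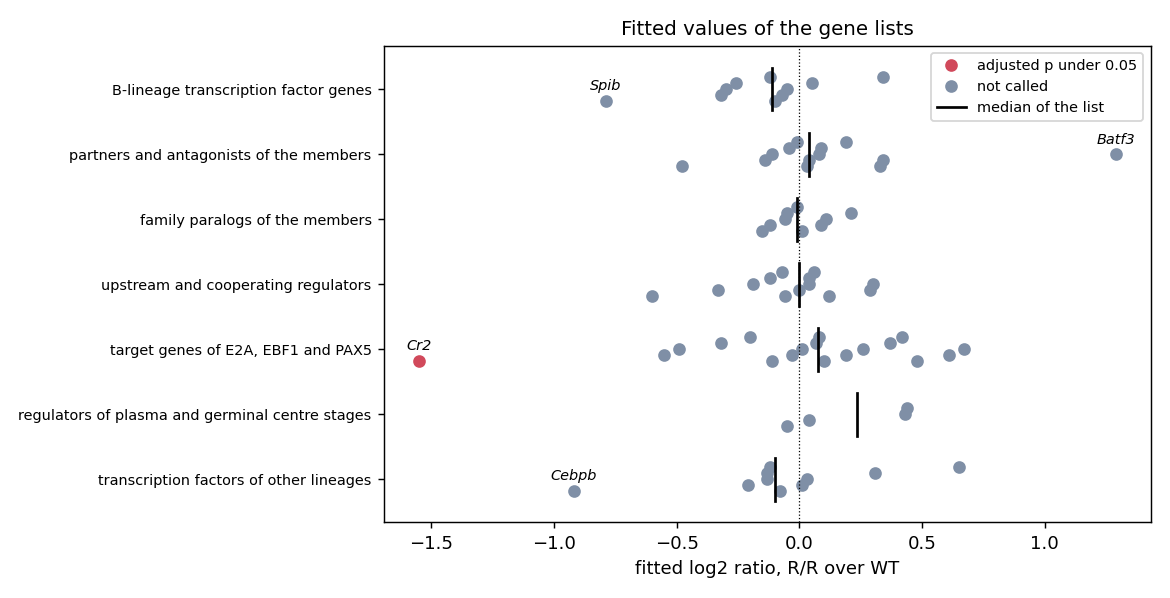
Fitted log2 ratio of R/R over WT (horizontal axis) for each tested gene of 7 lists, with black bars for the list medians; points are staggered vertically for legibility. Cr2, at -1.55, is the 1 called gene among them, and the medians run from -0.11 in the B-lineage transcription factor genes to 0.23 in the regulators of plasma and germinal centre stages.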

How the data were processed

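RNA of 3 R/R clones and an R/R pool was hybridised with a WT pool on 4 two-colour Agilent arrays. Intensity values were, per the file headers, the median brightness of each spot and of its surroundings, uncorrected (Agilent Feature Extraction 11.5.1.1). The scanner software's own log10 ratios of Cy5 over Cy3 had, per the file headers, background and dye bias already removed. The deposited log2 ratios were not used, since their row numbers match no probe column. In R 4.3.3, limma 3.58.1 applied normexp (offset 50) and then loess to each array. Control spots had no weight there, and 210 to 265 outlier spots per array were left out. A-quantile normalisation gave the levels. Gene names came from RefSeq (GRCm38.p6) accessions, which 27656 of 55681 probes matched. A probe needed a signal well above background on at least 3 of 4 arrays, in either the R/R or the WT channel. That left 26439 probes and, with the brightest kept for each gene, 20045 genes, of which 12296 had a symbol and the others were told apart by the identifiers in the files. The fit was limma with a genotype and a dye term, two-sided, with Benjamini-Hochberg adjustment over all genes, and was tested on simulated data. The text names all members and, of each other list, the called genes and the 3 with the smallest p; further names are marked, and some genes of the lists are not reported here. Members and lists were chosen with earlier results of these data known. Alternatives changed the signal (scanner ratios, offset 16), the scaling (median centring, scaling between arrays), the filter (none, strict), the probe (every probe, their mean) and the fit (clones alone, dye term dropped, 1 clone left out, clones 1 and 2 averaged, intensity trend).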

Additional observations from a re-analysis of the deposited data

How the results depend on the processing

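No member gene was called in 14 of 15 alternatives, and 1 (Spib) was called with no dye term, where 4 target genes were called in place of 1. Over all genes, 30 were higher and 75 lower in the fit reported. Scanner ratios gave 6 and 44, median centring 2 and 28, and no dye term 490 and 650. With the strict filter 48 were lower, and with all probes 49 were higher. Leaving out 1 clone gave 11 to 88 higher and 47 to 176 lower, the lowest without clone 1 and the highest without clone 3. Members that changed sign lay near 0 or were read by another probe. Ebf1 was at -0.02 with the scanner ratios and -0.03 on the clones alone. Tcf3 was at 0.05 and Ikzf1 at 0.01 by their dimmer probes, Bach2 at 0.13 by its dimmer probe, and Tcf3 at 0.00 by the mean of its probes. With 1 clone left out, Irf8 ran from -0.23 (without clone 2) to 0.01 (without clone 1 or clone 3) and Tcf3 from -0.11 (without clone 2) to 0.02 (without clone 3). The cause of these changes was not tested. The median of all genes moved by less than 0.1 under every scaling tried. The deposited log2 ratios were planned as an alternative and not run, since no row could be matched to a probe. Each ratio pairs an R/R sample with the WT pool on the same array. No further pairing of the clones with the R/R pool was possible, since they share fewer than 2 replicate numbers. Dim signals limit Ikzf3 and the dimmer probes of Pax5, Ikzf1 and Bach2.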
